A study of Homo sapiens with 24 samples.

Results

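The outer kinetochore genes described here are the 4 subunits of the NDC80 complex (NDC80, NUF2, SPC24 and SPC25), the 3 of the SKA complex (SKA1, SKA2 and SKA3), and the pair KNL1 and ZWINT. They were chosen by complex membership and found through the RefSeq accession of each probe, which gave 12 probes for the 9 genes at each time point, out of 50599 probes on the 24 h array and 58201 on the 48 h array. SKA2, KNL1 and ZWINT had 2 probes each. At both time points 11 of the 12 probes rose above the negative control threshold, and each of the 9 genes had at least 1 of them. The exception was the weaker KNL1 probe.

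The arrays came from LNCaP, an androgen-sensitive human prostate cancer cell line, transfected with 1 of 3 siRNAs. The scramble siRNA (si-SCRL) was the control, si-A1 was directed at the long non-coding RNA TAPIR-1, and si-A2 at TAPIR-2. RNA was taken at 24 h or 48 h, with 4 replicates per group, which the authors describe as biological replicates. All groups shared the parental cell line, the medium and the electroporation, so the differences below are between transfected cells of 1 line, with a single siRNA sequence standing for each transcript. Replicate 2 of si-A2 at 48 h was left out because its array was dim, with a median intensity of 13.9 against 20.4 to 32.2 on the other arrays of that time point. This left 23 of 24 arrays.

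The kinetochore is the protein assembly that ties a chromosome to the spindle during mitosis. The NDC80 complex is a rod that grips the microtubule with its NDC80 and NUF2 heads and is anchored to the centromere side through SPC24 and SPC25. The SKA complex joins it on the microtubule and keeps hold of the shrinking end, while KNL1, with its partner ZWINT, carries the docking sites of the spindle checkpoint proteins. Their mRNAs are known as cell cycle genes that peak late in the cycle, and many such promoters carry a CHR element near the start of transcription, a site read by the DREAM and MuvB complexes.

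After 24 h, both siRNAs were accompanied by lower mRNA of the outer kinetochore genes. With si-A1, 8 of 9 genes fell, against 1.02% of all probes called lower, and with si-A2, 7 of 9, against 0.837%. When single arrays were left out, the counts were as low as 4 and 4. For every gene all 4 arrays of either siRNA lay below all 4 control arrays, as for 5.4% (si-A1) and 4.42% (si-A2) of probes. After 48 h the siRNAs separated. si-A1 gave falls in 8 of 9 genes, against 4% of all probes called lower. With the dim si-A2 array included in the fit, 1 of 9 passed. Without that array NDC80 was down 13.6-fold and NUF2 10.4-fold. These sizes depended on the background treatment, since with normexp both stayed called at -1.84 and -1.86 log2. After si-A2 the means of the same 8 genes lay between those of si-A1 and the control. None passed the threshold on its brightest probe, against 0.375% of all probes called lower, although the other SKA2 probe was called. With normexp or no background correction 8 of 8 passed, and the share of all probes called under those settings is not given here. A gene was called when limma, with the slide as a term, gave an adjusted p below 0.01 over all tested probes and a log2 fold change of at least 0.5.

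The letters around the starts of the members are shown first, and their bearing on the mRNA levels was not tested. RefSeq (GRCh38.p14) gave a promoter window, 250 bases before to 50 after the start, for 8 of the 9 genes, and KNL1 had no entry. The CHR words searched were TTTGAA and TTCGAA on both strands. They were found within 50 bases of the start in 6 of 8 members, and in 5.01% of the 35116 windows in the table. The 30 bases around each of these matches read as follows, 5′ to 3′ on the strand of the gene, with the CHR words in capitals (TTCAAA is the word TTTGAA on the other strand).
NDC80: gcggagaatTTCAAATTCGAAcggctttgg
NUF2: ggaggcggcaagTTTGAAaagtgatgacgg
SPC25: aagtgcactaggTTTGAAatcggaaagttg
SKA1: ggcgcggcgggcggTTTGAAttttgcttac
SKA3: ccggcgccgagaTTCAAActagtggcggga
ZWINT: gtcgactgtgacTTCAAAgtaatcttaggg
They lie at chr18:2571545-2571574 (plus strand) for NDC80, chr1:163321958-163321987 (plus) for NUF2 and chr2:168890416-168890445 (minus) for SPC25. The others lie at chr18:50375066-50375095 (plus) for SKA1, chr13:21176538-21176567 (minus) for SKA3 and chr10:56361273-56361302 (minus) for ZWINT. NDC80 held a pair of words, whose first bases were at positions -3 and 4 counted from the start. The SPC25 and SKA3 words also began at -3, and those of NUF2 and SKA1 lay inside the transcript at 17 and 35.

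The windows of SPC24 and SKA2 held no CHR word. What they held were CCAAT boxes, the word of the factor NF-Y, searched as CCAAT or ATTGG. The 250 bases before each start are shown with these boxes in capitals, as the contrast to the 6 sequences above.
SPC24: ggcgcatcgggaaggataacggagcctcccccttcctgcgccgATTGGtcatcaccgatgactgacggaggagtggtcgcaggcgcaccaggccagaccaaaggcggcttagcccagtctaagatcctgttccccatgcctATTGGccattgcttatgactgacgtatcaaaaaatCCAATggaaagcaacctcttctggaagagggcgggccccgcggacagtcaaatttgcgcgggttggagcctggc
SKA2: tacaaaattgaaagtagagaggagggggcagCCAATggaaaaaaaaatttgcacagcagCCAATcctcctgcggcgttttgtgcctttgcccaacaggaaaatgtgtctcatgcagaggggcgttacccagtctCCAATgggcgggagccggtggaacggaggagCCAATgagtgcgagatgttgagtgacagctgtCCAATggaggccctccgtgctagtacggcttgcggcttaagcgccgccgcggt
They lie at chr19:11155783-11156032 and chr17:59155187-59155436, both on the minus strand. SPC24 had 3 boxes and SKA2 had 5. CCAAT boxes were found in 4 of 8 members, the other two being SPC25 and ZWINT, and in 34.6% of all windows. The E2F words searched were TTCCCGC and TTCGCGC as well as TTGGCGC and TTGCCGC on both strands, and 4 of 8 members held one against 13% of all windows. These are letter matches, and no binding was measured.

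**Figure D1:**
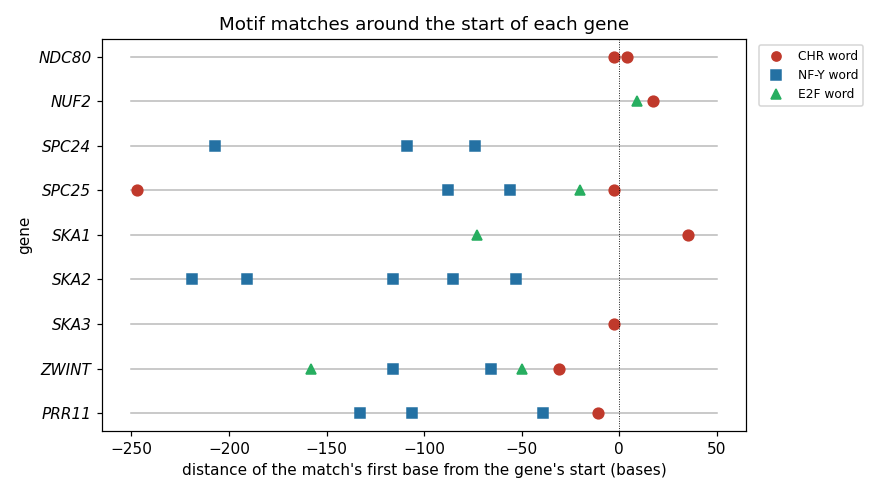
Positions of the motif words in the promoter windows of 8 outer kinetochore genes and of PRR11, the neighbour of SKA2. The x axis is the distance in bases of the first base of each match from the start of the gene, grey lines are the windows searched, and marker shape gives the motif. CHR words sit close to the start in 6 members, while SPC24 and SKA2 hold only NF-Y words.

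Levels are given below as log2 intensity, quantile-normalized between the arrays of 1 time point. They can be compared between arrays for 1 probe, but not between probes, nor between time points, which were run on different array versions. Over the 23 arrays used, 58.5% to 71.7% of probes were well above background. The prostate luminal markers KLK3, KLK2, FOLH1, TMPRSS2 and HOXB13 were well above background on all arrays at each time. Of the 6 markers of other cell types, PTPRC and PECAM1 were so on all 24 h arrays and PTPRC on all 48 h arrays, on at least 1 probe. KRT5 was so on none. The probes disagree: some other PTPRC probes were so on 0 or 1 of 12 arrays at 24 h and 0 of 11 at 48 h. The other PECAM1 probes were so on 0 of 12 at 24 h. Of these 5 luminal markers, KLK2 was called lower after si-A1 at 48 h on its brighter probe (-1.07 log2, limma adjusted p = 0.00096), but its other probe was at 0.38 (limma adjusted p = 0.11), so the KLK2 probes disagree. On the brightest probe of each, none was called in the other comparisons with the control. Differences of the brightest tested probe of each marker of other cell types from the control ran from -0.54 to 0.71 log2. Another PTPRC probe was at -0.98 after si-A1 at 24 h (limma adjusted p = 0.18).

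As a check of the labels, the TAPIR-2 probe present at both times read 5.08, 4.98, 5.28 and 4.81 in the control arrays at 24 h and 4.70, 3.12, 4.61 and 3.82 after si-A2. All si-A2 arrays were below all control arrays, but those at 3.12 and 3.82 were not well above background. After si-A1 the probe read 4.95, 4.75, 4.68 and 4.19 at 24 h. The si-A1 and si-A2 arrays overlapped, so the probe did not separate the 2 siRNAs. At 48 h it ranged from 4.02 to 5.41 in the control and from 3.83 to 5.62 after si-A2, so the groups overlapped and a lower TAPIR-2 level was not seen in the arrays labelled si-A2. No probe was matched to TAPIR-1, so the si-A1 label was not checked in this way.

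NDC80, the microtubule-binding subunit that names the complex, read 7.61, 6.99, 9.40 and 7.08 in the control arrays at 24 h, 5.65, 5.09, 5.37 and 5.36 after si-A1 and 5.07, 4.87, 5.04 and 4.91 after si-A2. The third control array was far above the other three, and both siRNA groups lay below all controls. NDC80 fell by 2.80 log2 after si-A2 (SE 0.43, limma adjusted p = 0.0059). Its difference after si-A1, -2.40 (SE 0.43, limma adjusted p = 0.014), missed the threshold. Without control replicate 3 the si-A1 difference was -1.84 with a limma adjusted p of 0.00096, and it also passed without control replicate 4 (-2.72). The si-A2 call was lost in 8 of 12 fits that each left out 1 array, with limma adjusted p up to 0.0258.

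At 48 h NDC80 read 7.65, 7.66, 7.38 and 7.97 in the control, 3.64, 4.14, 3.43 and 4.39 after si-A1, and 6.51, 5.06 and 6.09 after si-A2. The 3 groups did not overlap, with si-A2 in the middle. Of all probes at 48 h, 8.83% lay wholly below the control after si-A1 and 7.24% after si-A2. With si-A2, 7.87% lay wholly above si-A1. NDC80 fell by 3.76 log2 after si-A1, or 13.6-fold (SE 0.32, limma adjusted p = 0.00014). The difference after si-A2 was -1.74 (SE 0.35, limma adjusted p = 0.035).

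NUF2, which pairs with NDC80 in the microtubule-binding head, read 6.92, 6.80, 7.44 and 6.89 in the control at 24 h, 5.54, 5.32, 5.34 and 5.51 after si-A1 and 5.26, 5.60, 5.34 and 5.21 after si-A2. Both siRNA groups lay well below the control and overlapped each other. NUF2 fell by 1.58 and 1.66 log2 (SE 0.17 each, limma adjusted p = 0.00049 and 0.00034), and both calls held whichever array was left out. At 48 h NUF2 read 8.02, 7.89, 7.68 and 7.75 in the control, 4.13, 5.04, 4.07 and 4.63 after si-A1, and 6.43, 5.54 and 6.24 after si-A2. Again the groups did not overlap. NUF2 was 10.4-fold lower after si-A1, while the si-A2 difference, -1.72 log2, had a limma adjusted p of 0.0127.

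SPC24 and SPC25 form the end of the rod that faces the centromere. SPC24 read 7.25, 7.45, 7.40 and 6.93 in the control at 24 h, 6.23, 6.27, 6.09 and 5.64 after si-A1 and 6.12, 5.34, 5.43 and 5.72 after si-A2. All siRNA arrays were below all controls. The falls were 2.30-fold and 3.04-fold, and the si-A1 call (limma adjusted p = 0.0085) was lost in 10 of 12 fits without 1 array, while the si-A2 call was kept in all 12. At 48 h the control arrays read 8.47, 8.38, 8.21 and 8.68, those of si-A1 4.64, 5.85, 5.36 and 5.94, and those of si-A2 7.11, 6.37 and 6.92. SPC24 was 7.92-fold lower after si-A1 and its si-A2 difference was -1.64 log2 (limma adjusted p = 0.032).

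SPC25 came close to background after the siRNAs. At 24 h it read 5.78, 6.02, 6.44 and 6.05 in the control, 3.86, 1.76, 3.58 and 3.89 after si-A1 and 3.34, 3.29, 3.40 and 3.08 after si-A2. All control arrays, 2 of 4 si-A1 arrays and no si-A2 array were well above background. SPC25 was at least 5.20-fold lower after si-A2 (limma adjusted p = 0.0028), and it fell by 2.80 log2 after si-A1 (SE 0.38, limma adjusted p = 0.0027). At 48 h it read 6.69, 6.39, 6.57 and 7.03 in the control, 1.06, 3.04, 1.30 and 1.66 after si-A1, and 4.93, 2.96 and 3.97 after si-A2. No si-A1 array was well above background, and the fall was at least 11.1-fold (limma adjusted p = 0.00026).

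**Figure D2:**
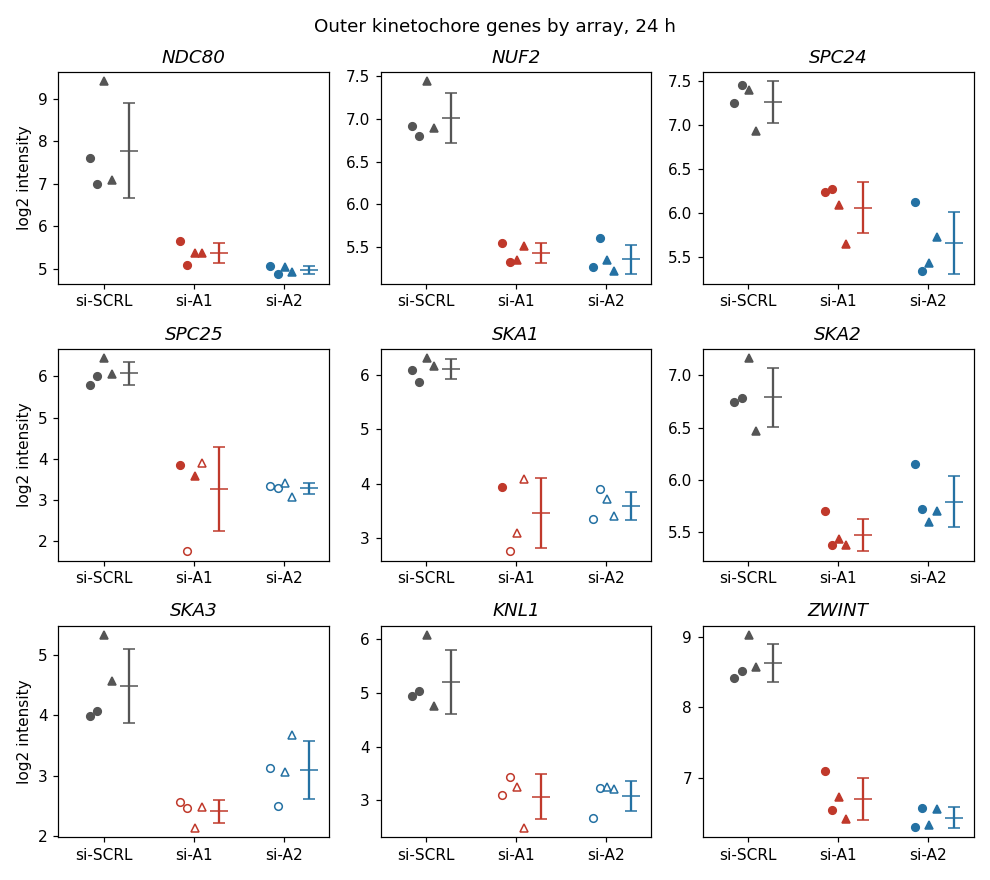
Log2 intensity of the brightest probe of each outer kinetochore gene on the 12 arrays at 24 h, with the mean and SD of each group beside its 4 arrays. Circles are slide 1 and triangles slide 2, and open symbols were not well above background. In every panel the si-A1 and si-A2 arrays lie below all control arrays, and the third control array stands high in 8 of 9 genes.

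SKA1, the microtubule-binding subunit of the SKA complex, read 6.10, 5.87, 6.31 and 6.16 in the control at 24 h, 3.93, 2.76, 3.09 and 4.09 after si-A1 and 3.35, 3.90, 3.72 and 3.40 after si-A2. All control arrays, 1 si-A1 array and no si-A2 array were well above background. With si-A1 it fell by 2.65 log2 (SE 0.28, limma adjusted p = 0.00057). With si-A2 the decrease was at least 5.18-fold, at an adjusted p of 0.00077 in limma. At 48 h SKA1 read 6.34, 6.08, 5.55 and 6.32 in the control, 2.41, 1.66, 1.22 and 1.22 after si-A1, and 4.96, 3.67 and 4.77 after si-A2. The groups did not overlap, no si-A1 array was well above background, and the fall after si-A1 was at least 7.32-fold (limma adjusted p = 5.1e-05).

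SKA2, the subunit that holds SKA1 and SKA3 together, read 6.74, 6.78, 7.16 and 6.47 in the control at 24 h on its brighter probe, 5.70, 5.38, 5.44 and 5.38 after si-A1 and 6.15, 5.72, 5.60 and 5.70 after si-A2. All siRNA arrays were below the controls. With si-A1, SKA2 was 2.48-fold lower (limma adjusted p = 0.0025). Its si-A2 difference, -0.997 log2 (SE 0.18), had a limma adjusted p of 0.015. The other SKA2 probe moved further in the same direction: -2.32 log2 after si-A1 and at least 4.32-fold lower after si-A2, where it was not well above background (limma adjusted p = 0.00017 and 8.5e-05). At 48 h the brighter probe read 7.01, 6.68, 6.46 and 6.67 in the control, 4.24, 4.95, 3.90 and 4.77 after si-A1, and 5.65, 4.43 and 4.90 after si-A2. The si-A1 fall was 4.72-fold. The other probe passed the threshold for si-A2 too, where it fell by 2.04 log2 (SE 0.24, limma adjusted p = 0.0064), the single member probe called in that comparison.

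SKA3, the subunit that links the complex to the NDC80 rod, read 3.99, 4.07, 5.33 and 4.57 in the control at 24 h, 2.57, 2.46, 2.14 and 2.49 after si-A1 and 3.13, 2.50, 3.07 and 3.68 after si-A2, and no siRNA array was well above background. With si-A1, SKA3 was at least 1.87-fold lower, at an adjusted p of 0.0023 in limma. This call was lost with normexp (-0.36 log2, limma adjusted p = 0.054) and with no background correction (-0.35, 0.049). It was also lost with the replicate block, with only the groups compared and without si-A1 replicate 4. With si-A2, SKA3 was at least 1.63-fold lower, but the limma adjusted p of 0.028 missed the threshold. At 48 h the SKA3 probe passed the filter and was tested, but no array was well above background, so no fold is given and its sign at that time is not counted.

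KNL1, the scaffold that recruits the checkpoint kinase BUB1, read 4.94, 5.03, 6.07 and 4.75 in the control at 24 h, 3.10, 3.44, 3.25 and 2.49 after si-A1 and 2.67, 3.23, 3.24 and 3.21 after si-A2. Only the control arrays were well above background. KNL1 was at least 2.99-fold lower after si-A1 and at least 2.83-fold lower after si-A2 (limma adjusted p = 0.0038 and 0.0041). Both calls were lost with either of the other background treatments and in 5 and 6 of the 12 fits without 1 array. At 48 h it read 5.89, 6.01, 6.29 and 6.46 in the control, 1.31, 2.67, 1.45 and 2.90 after si-A1, and 4.59, 3.58 and 4.13 after si-A2, at least 7.79-fold lower after si-A1 (limma adjusted p = 0.00027).

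ZWINT, the KNL1 partner that helps to recruit the RZZ complex, was well above background on every array. It read 8.42, 8.52, 9.03 and 8.57 in the control at 24 h, 7.10, 6.54, 6.72 and 6.41 after si-A1 and 6.29, 6.56, 6.32 and 6.55 after si-A2. ZWINT fell by 1.94 after si-A1 and fell by 2.20 log2 after si-A2 (SE 0.19 each, limma adjusted p = 0.00033 and 0.00013). On its other probe ZWINT was 3.99-fold and 4.16-fold lower. At 48 h ZWINT read 9.49, 9.23, 8.86 and 9.48 in the control, 6.01, 5.90, 5.07 and 5.73 after si-A1, and 8.02, 6.73 and 7.43 after si-A2. Here too the 3 groups did not overlap, and ZWINT fell by 3.59 log2 after si-A1 (SE 0.24, limma adjusted p = 5.6e-05).

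**Figure D3:**
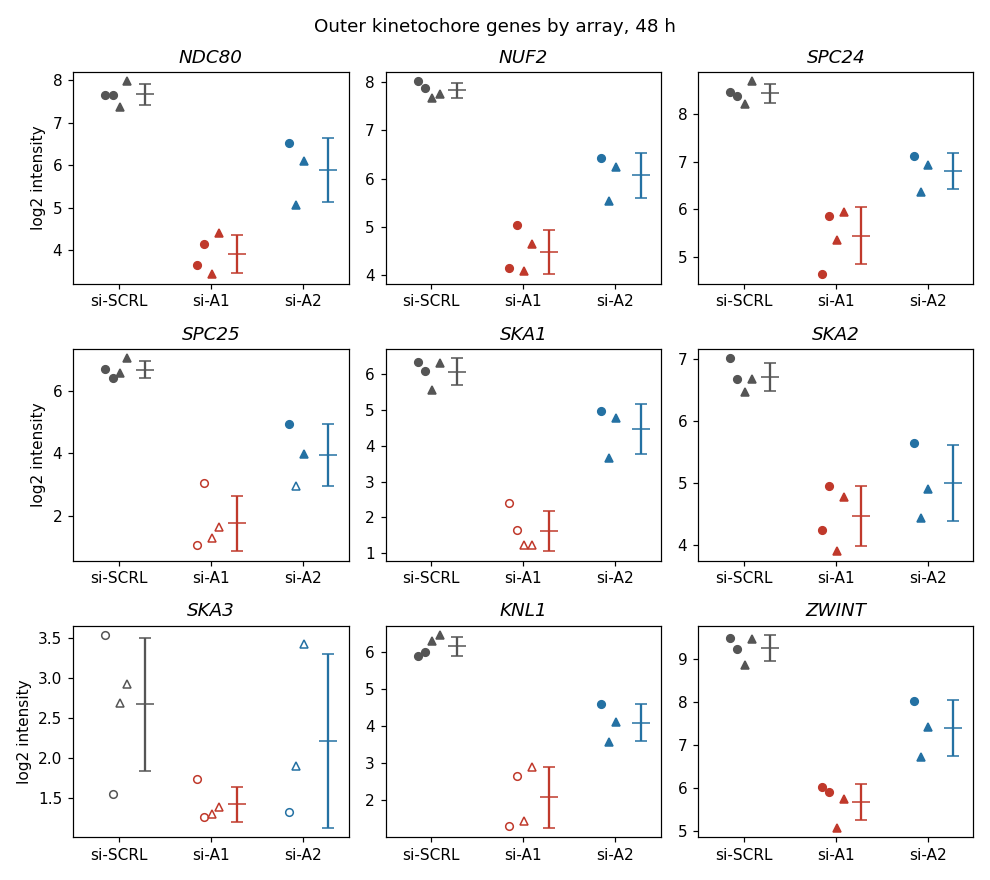
Log2 intensity of the brightest probe of each outer kinetochore gene on the 11 arrays at 48 h, drawn as for 24 h, with 3 si-A2 arrays. Apart from SKA3, whose points are all open, the control arrays are highest, and the si-A2 arrays lie between the control and si-A1 or overlap with si-A1 alone.

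The counts can be set beside all tested probes, with each gene represented by its brightest tested probe. At 24 h, 8 of 9 members were called lower after si-A1, against 1.02% of 44793 probes (0.0804% were called higher), and their median fitted difference was -2.08 log2 against 0.04 over all probes. After si-A2, 7 of 9 were called lower against 0.837% of probes (0.0893% higher), with a median of -2.11. With the probes that were dim in a whole group set at their bound, the medians were -1.58 and -1.66. All 9 members lay wholly below the control in each comparison, as did 5.4% and 4.42% of all probes. The 2 comparisons share the control arrays, so they are not independent.

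How many members passed at 24 h depended on single arrays. After si-A1 the count was 5 without control replicate 1, and 4 without control replicate 2 or without si-A1 replicate 3 or 4. After si-A2 it was 4 without control replicate 1 or without si-A2 replicate 2, 3 or 4. NUF2, SKA1 and ZWINT kept their si-A1 call in all 12 fits without 1 array, and these 3 and SPC24 kept their si-A2 call. With only the 8 arrays of the groups compared, 3 and 4 members passed. On either slide alone, all 9 differences were below 0 for both siRNAs, ranging from -3.27 to -0.83.

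Control replicate 3 at 24 h was the highest control array in 8 of 9 genes, on average 0.58 log2 above its group mean. It was also the array with the lowest median intensity at that time, 24.4. Without it the members' differences stayed below 0 for both siRNAs. All siRNA arrays lay below all controls, so leaving out 1 control could hardly turn a sign. The calls did change: with si-A1, NDC80 then passed (-1.84 log2, limma adjusted p = 0.00096). SPC24 and SPC25 then missed the si-A1 threshold (limma adjusted p = 0.024 and 0.013).

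The direct comparison of the siRNAs at 24 h gave no member call. For the 5 members well above background on every array of both groups (NDC80, NUF2, SPC24, SKA2 and ZWINT), the differences of si-A2 against si-A1 ran from -0.40 to 0.32 log2 with a median of -0.26. SKA3 and KNL1 were not well above background in either group, nor SPC25 and SKA1 after si-A2, so these 4 could not be compared. In limma, 0 of 9 were called and 1 of 9 had an unadjusted p below 0.05, which was the unmeasured SKA3. Of all probes, 11.4% had such a p, and 0.114% and 0.252% were called lower and higher. The 95% interval of the difference was -0.44 to 0.29 for NUF2 and -0.68 to 0.16 for ZWINT, but -1.34 to 0.54 for NDC80. The order at 24 h was control above both siRNAs. For NDC80 all si-A2 arrays lay below all si-A1 arrays, the nearest being 5.07 and 5.09, while the groups of the other 4 overlapped. Of all probes, 4.92% lay wholly lower with si-A2 in this way.

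At 48 h, 8 of 9 members were called lower after si-A1, against 4% of 44844 probes (2.16% higher), with a median of -3.37 log2 over the 5 members well above background on every array, against 0.05 over all probes. The ninth was SKA3. All 8 calls held in each of the 11 fits without 1 array. They depended on the array left out beforehand: with si-A2 replicate 2 included in the fit, 1 of 9 passed (NUF2), while the differences themselves were close to those above, such as -3.67 log2 for NDC80.

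After si-A2 at 48 h, limma called 0 of 9 members, against 0.375% of probes called lower and 0.0691% called higher. With SKA3 left aside as not measured, the 8 differences ran from -2.63 (SPC25, well above background on 2 of 3 si-A2 arrays) to -1.51, with a median of -1.73. An unadjusted p below 0.05 was found for 8 of 9 members and for 17.8% of all probes. The adjusted p of the 8 measured genes ran from 0.0118 for ZWINT to 0.0405 for KNL1, and all 3 si-A2 arrays were below all controls in these 8, as for 7.24% of probes. This count turned on the background treatment: 8 of 8 tested members passed with normexp or with no background correction, where SKA3 was not tested. It was 3 when only probes well above background in a whole group were tested, and 2 with the slide as a random block.

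The si-A2 arrays at 48 h differed among themselves. Replicate 1, the single one on slide 1, was highest in 8 of 9 genes and replicate 3, on slide 2, lowest in 8 of 9. The si-A2 differences from the control were -1.61 to -1.14 on slide 1 and, with SKA3 left aside, -3.33 to -1.72 on slide 2.

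**Figure D4:**
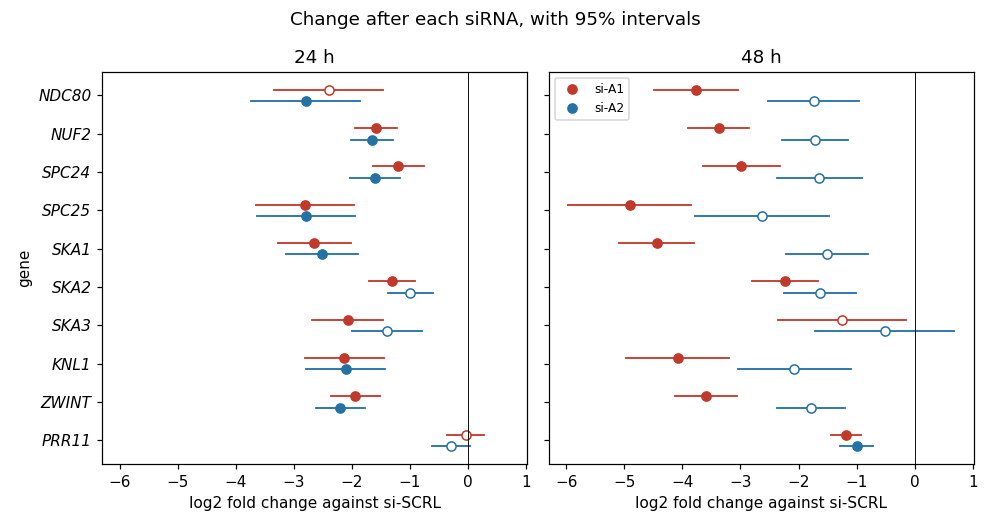
Log2 fold change of each outer kinetochore gene and of PRR11 against the control, at 24 h and 48 h, with 95% intervals from limma. Filled points passed the threshold. The si-A1 points lie further from 0 at 48 h than at 24 h for 8 of 9 members, all except SKA3 (not well above background at 48 h), and PRR11 lies near 0 at 24 h.

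Compared directly at 48 h, the members stood higher with si-A2 than with si-A1. NUF2 was higher by 1.66 log2 (SE 0.25, limma adjusted p = 0.0081) and ZWINT by 1.80 (SE 0.26, limma adjusted p = 0.0063). SKA1 was at least 2.40-fold higher (limma adjusted p = 0.0021). These 3 of 9 were called higher against 0.997% of probes (0.473% were called lower), and over the 5 members well above background on every array the differences ran from 0.60 to 2.02 log2 with a median of 1.66. For SKA2 the interval of the difference reached from -0.02 to 1.22.

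These 3 calls rested on single arrays. None was left without si-A2 replicate 1 or si-A1 replicate 3, and SKA1 alone was left without control replicate 1 or 3, si-A1 replicate 1, 2 or 4, or si-A2 replicate 4. Without si-A2 replicate 3 there were 4, with NDC80 added. With the replicate number as a block, 2 remained called and NUF2 had a limma adjusted p of 0.0155. Same-numbered arrays correlated between groups at 48 h, but other arrays of the same slide correlated alike. Without the slide term 1 remained, and with only the groups compared none did. The order at 48 h was control, si-A2, si-A1, and the upper step for all 8 measured members and the lower step for 5 of them did not reach the threshold.

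On their brightest probes, the fitted si-A1 effect was larger at 48 h than at 24 h for NDC80, NUF2, SPC24, SKA2 and ZWINT. These 5 members were well above background on every si-A1 and control array at both times. SPC25, SKA1 and KNL1 also had larger fitted effects at 48 h, but only a bound after si-A1 at that time. The other SKA2 probe gave a difference of -0.10 log2 between the times (limma adjusted p = 0.93), so the SKA2 probes disagree. Of 45698 probes shared by both array versions, 35498 were tested, and the difference of the effects was called for NUF2, -1.76 log2 (SE 0.27, limma adjusted p = 0.0052), against 0.0986% of probes called lower and 0.0592% called higher. An unadjusted p below 0.05 was found for 9 of 9 members and for 13.3% of probes, but SPC25, SKA1, SKA3 and KNL1 were not well above background after si-A1 at 48 h. SPC24 (-1.80, limma adjusted p = 0.025) and ZWINT (-1.68, limma adjusted p = 0.017) came next. The NUF2 call was lost in 12 of 23 fits without 1 array, with limma adjusted p up to 0.0179, and with the replicate block (0.0105). Time and array version cannot be told apart here.

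For NUF2, those 12 fits lacked control replicate 1, 2 or 4 or any si-A1 replicate at 24 h, or control replicate 1, 3 or 4 or si-A1 replicate 1 or 3 at 48 h. ZWINT joined NUF2 past the threshold without control replicate 3 at 24 h or si-A2 replicate 3 at 48 h. The si-A2 effect did not differ detectably between the times: limma called 0 of 9 members, against 0.00282% of probes called lower and 0.031% called higher, 2 had an unadjusted p below 0.05 against 7.59% of probes, and SPC25, SKA1, SKA3 and KNL1 were not well above background after si-A2 at 24 h.

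In these bulk samples, fewer cells at the stage that expresses these genes and less mRNA per cell cannot be told apart.

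SKA2 starts 560 bases from PRR11, a gene of cell cycle progression that runs the opposite way from the same intergenic region. The PRR11 window held 1 CHR word, with its first base at position -11, and 3 CCAAT boxes, while the SKA2 window held no CHR word. PRR11 read 7.10, 7.25, 7.32 and 7.24 in the control at 24 h, 7.49, 6.90, 7.29 and 7.06 after si-A1 and 6.90, 6.84, 7.07 and 6.92 after si-A2. Its differences were -0.04 and -0.29 log2 (limma adjusted p = 0.92 and 0.48), at a time when SKA2 was called lower after si-A1. At 48 h PRR11 read 7.73, 7.42, 7.16 and 7.53 in the control, 6.25, 6.35, 6.25 and 6.25 after si-A1, and 6.62, 6.28 and 6.40 after si-A2. It fell by 1.18 and 1.00 log2 (SE 0.12 and 0.13, limma adjusted p = 0.00029 and 0.0076). The si-A1 effect on PRR11 differed between the times by -1.13 log2 (SE 0.18, limma adjusted p = 0.006). The si-A2 call of PRR11 at 48 h was lost in each of the 11 fits without 1 array, with limma adjusted p of 0.0123 to 0.034. The difference between the 2 neighbours was not tested.

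The rest of the kinetochore gave a divided picture. Of 22 other genes, limma called 12 lower at 24 h with si-A1 and 13 with si-A2, against 1.02% and 0.837% of all probes. Their medians were -1.25 and -1.39 log2. The MIS12 complex, the platform on which the NDC80 complex sits, had 1 of 4 genes called with each siRNA. That was DSN1, which fell by 2.39 and 1.70 log2. MIS12 (-0.20 and -0.44), NSL1 (-0.29 and -0.29) and PMF1 (-0.002 and -0.09) were not called.

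The inner linkers CENPC (-0.23 and -0.47) and CENPT (-0.45 and -0.25), which tie the outer kinetochore to the centromere, were not called at 24 h. Of the RZZ complex and corona, which bind early to unattached kinetochores, 4 of 6 genes were called with each siRNA. With si-A1, KNTC1, the ROD subunit, moved furthest and fell by 1.79 log2, and with si-A2, CENPF, a corona protein, fell by 1.88. ZW10 (0.02 and -0.06) and SPDL1 (-0.55 and -0.51) were not called, although the dimmer SPDL1 probe was (-1.21 and -0.75 log2, limma adjusted p = 0.00021 and 0.0047), so the SPDL1 probes disagree.

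Among the spindle checkpoint proteins, 3 of 6 genes were called after si-A1 and 4 of 6 after si-A2. TTK, the kinase that phosphorylates KNL1, fell by 2.66 log2 after si-A1 and was at least 5.96-fold lower after si-A2. BUB1, which docks on KNL1, was at -1.38 after si-A1 with an adjusted p just above the limma threshold, and fell by 1.87 after si-A2. BUB3 (-0.45 and -0.30) and MAD1L1 (0.26 and 0.27) were not called. The chromosomal passenger complex, which corrects faulty attachments, had 4 of 4 genes called with both siRNAs, led by BIRC5 (survivin), which fell by 2.07 and 1.89 log2.

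At 48 h, si-A1 gave 13 lower calls among the 21 tested genes of these groups, against 4% of all probes. si-A2 gave 1, against 0.375% of all probes. The si-A2 call was INCENP, the scaffold of the passenger complex, at least 3.32-fold lower (limma adjusted p = 0.0032). BUB1 was not tested at 48 h because 1 of its spots was an outlier on an array. DSN1 (1.60 log2), KNTC1 (1.02) and TTK (at least 2.16-fold) were called higher with si-A2 than with si-A1, the same order as in NUF2, SKA1 and ZWINT. With si-A1, BIRC5 fell by 3.72 log2 and TTK was at least 7.70-fold lower, and BUB3, MIS12 and CENPC were called lower at this time, at -1.16, -0.60 and -0.59 log2.

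**Figure D5:**
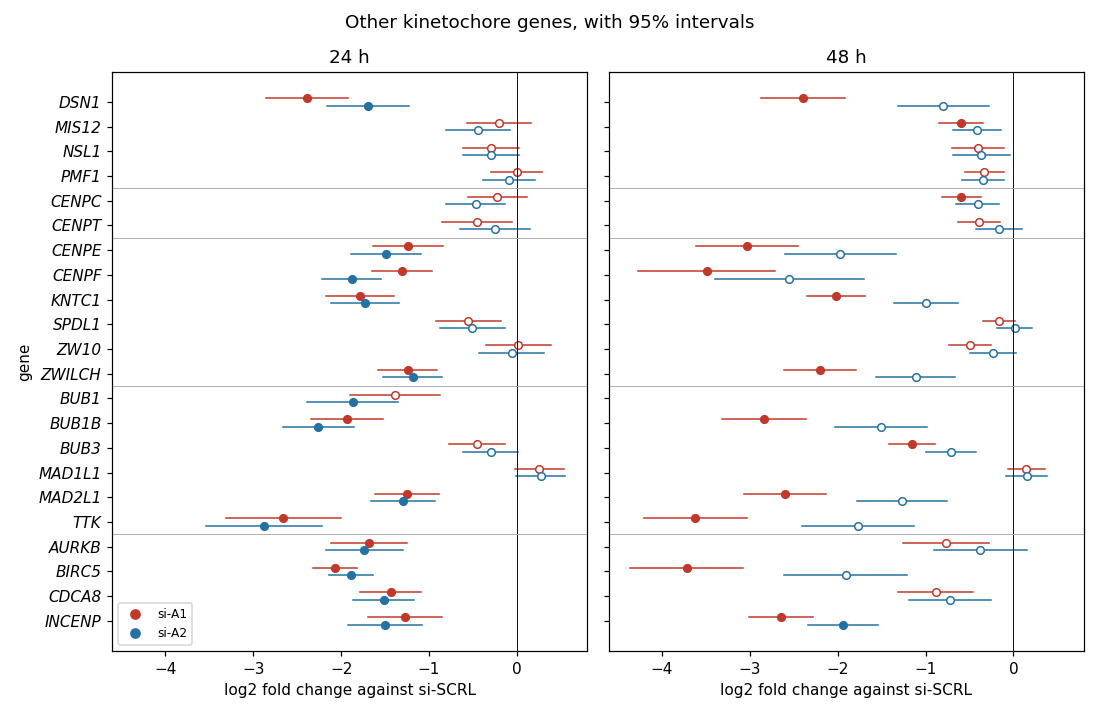
Log2 fold change of the 22 other kinetochore genes against the control at 24 h and 48 h, with 95% intervals from limma, in 5 groups from the MIS12 complex at the top to the chromosomal passenger complex at the bottom. Filled points passed the threshold. MIS12, NSL1, PMF1, CENPC, CENPT, SPDL1, ZW10, BUB3 and MAD1L1 are open for both siRNAs at 24 h, and BUB1 has no point at 48 h.

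The genes most like the members were ranked by the lower of their Pearson correlations with the members' mean profile over 12 arrays at 24 h and 11 at 48 h. The arrays share the 3 siRNA groups, so this ranking describes a likeness and tests nothing. RRM2, a subunit of ribonucleotide reductase, came first (lower r 0.990), followed by DIAPH3, a formin (0.987), PCNA, the sliding clamp of DNA replication (0.987), MCM4 of the replicative helicase (0.987) and the histone gene H2AC12 (0.986). RRM2 had mean levels of 9.06, 5.94 and 6.19 with the control siRNA, si-A1 and si-A2 at the first time point, and of 9.12, 5.36 and 7.53 at the second. At the second time point its order of groups was that of NDC80 and ZWINT. Among the members themselves, NUF2 followed the shared profile most closely (lower r 0.989), and SKA3, dim at 48 h, least closely (0.650).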

How the data were processed

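Total RNA of LNCaP cells was hybridised to Agilent SurePrint G3 8x60K arrays (v2 at 24 h, v3 at 48 h), 1 colour, 4 per siRNA and time. The authors deposited Agilent Feature Extraction 11.5.1.1 output, whose processed signal is a background-subtracted intensity per spot, and 1 table per time of log2 values, which equal the quantile-normalized log2 processed intensity to within 0.0528 (24 h) and 0.219 (48 h). The submitters' processing notes name R 3.4.3 and limma 3.34.8. The members and gene lists were chosen with earlier results of these data known.

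Here the processed intensities were put on the log2 scale and quantile-normalized separately for each time point. Control and outlier spots were dropped and repeated spots averaged. A probe was tested if it had a value on all arrays and, on 3 or more of them, exceeded the negative controls (308 spots) by 3 SDs over their mean (44793 at 24 h, 44844 at 48 h). limma 3.58.1 in R 4.3.3 was fitted with slide, as named in the file header, as an additive term. Each p was adjusted by Benjamini-Hochberg over all tested probes. The difference of effects between times was fitted on shared probes of all 23 arrays, normalized together. A probe not well above background in a whole group is given as a bound, the brighter group's mean against the higher of the dim signal and the lowest signal well above background on each array. Probes were named through RefSeq accessions (GRCh38.p14) for 57.4% and 53.4% of probes. The fits were tested on simulated data. Some items are not reported here. All 9 members were named with every probe. Of the other kinetochore genes, those with the largest change in their group or not called at 24 h were named, beside PRR11, the TAPIR probe and the 5 genes most alike. Others were named after their values were seen (the INCENP, BUB1 and second-probe results). Precision is limited by the number of arrays.

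Same-numbered arrays of different groups had correlations of -0.147 to 0.159 (24 h) and 0.179 to 0.354 (48 h) once group means were removed. At 48 h other arrays of the same slide correlated alike (median 0.189), and with the slide also removed no same-numbered pair was above -0.0096. The labels do not say that the numbers mark a shared batch. Alternatives covered normalization, background, slide, replicate block, filters, threshold and each array left out.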

Additional observations from a re-analysis of the deposited data

Results flagged for a closer look

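In 45 groups of 4 arrays (each member gene in each such group), 2 held an array whose gap to its nearest neighbour took up more of the group's range than Dixon's 95% limit allows, and chance gives about 1 in 20. For SPC25, si-A1 replicate 2 at 24 h read 1.76 against 3.58 for the next lowest (gap over range 0.854). For KNL1, si-A2 replicate 1 at 24 h read 2.67 against 3.21 (0.947). Neither array was well above background for that probe.

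The si-A1 effect differed between 48 h and 24 h in the limma test of the difference itself for NUF2, by -1.76 log2, and for PRR11, by -1.13 log2. Both were larger falls at 48 h, measured on another array version, and the part of the array version was not tested.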

How the results depend on the processing

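For each siRNA against the control at 24 h and for si-A1 at 48 h, every tested member (SKA3 at 48 h without a measurable level) stayed below 0 in all 25 alternatives of each comparison. For si-A2 at 48 h this held in 24 of 25, the exception being SKA3 with the dim array included (0.19). PRR11 after si-A1 at 24 h lay between -0.17 and 0.053 when 1 array was left out, turning to 0.053 and 0.019 without si-A1 replicate 2 or 4. Fitting only the groups compared left 3 and 4 members called at 24 h (si-A1 and si-A2) and 0 for si-A2 against si-A1 at 48 h. Such a fit holds fewer arrays, and why the calls were lost was not tested. With normexp or no background correction, 8 and 8 members passed for si-A2 at 48 h and 3 and 3 for the si-A1 difference between times, while no correction gave 5 for si-A2 against si-A1 at 48 h. These settings also shrank the differences: the members' median after si-A1 at 24 h was -0.82 and -0.81 in place of -2.08, and at 48 h NDC80 was at -1.84 and -2.25 in place of -3.76. For si-A2 at 48 h, the slide as a random block gave 2 and the filter on probes well above background 3. Without the slide term, 1 member passed for si-A2 against si-A1 at 48 h. Including the dim array gave 1 for si-A1 at 48 h, 0 for si-A2 against si-A1 at 48 h and 0 for the si-A1 difference between times. The cause was not tested. The replicate block gave 6 and 7 members at 24 h, 8, 0 and 2 at 48 h, and 0 for both differences between times. The numbers were not taken to pair the arrays at 24 h. Leaving out 1 array at a time gave, at 24 h, 4 to 8 calls with si-A1 and 4 to 7 with si-A2, 0 to 4 for si-A2 against si-A1 at 48 h, and 0 to 2 for the si-A1 difference between times. A member too dim to be measured throughout a group has only a bound there, and one measured on some arrays (SPC25 and SKA1 after si-A1 at 24 h, SPC25 after si-A2 at 48 h) has a less certain size.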
